A study of Mus musculus with 8 samples.

Results

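Brevican (Bcan), the other lecticans and their partners in the hyaluronan matrix of the brain were followed in 8 RNA sequencing samples of embryonic mouse dorsal forebrain. The 8 genes are Bcan, Ncan, Vcan and Acan, which encode the lecticans brevican, neurocan, versican and aggrecan, with Hapln1, Tnc, Tnr and Ptprz1. They were found by symbol among 43629 deposited gene IDs, and all 8 matched. The names were chosen by hand with the genotype difference of these same samples known, and the rule holds no threshold. Their genotype differences are therefore given as a description, with fold changes and standard errors but no p-values.

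The tested samples were 4 Sufu-cKO forebrains (Mut_295, Mut_317, Mut_337 and Mut_340), which carried 1 Emx1-cre allele and floxed Sufu on both chromosomes. The 4 control forebrains, Cont_294, Cont_345, Cont_365 and Cont_370, carried floxed Sufu on both chromosomes or on 1, and the labels do not say which control had which. All were male E12.5 embryos of a mixed strain background that included C57BL/6J. Emx1-cre acts in progenitors of the dorsal telencephalon and in their descendants, so vessels, meninges and ventral cells in the dissected tissue keep Sufu. Presence of the cre allele and loss of Sufu cannot be told apart in this design. The labels do not say whether samples came from separate litters, so every p-value reflects sample-to-sample spread that could be technical in part.

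Lecticans are large secreted proteoglycans. Their N-terminal domain binds hyaluronan, link proteins such as HAPLN1 lock that bond, their middle part carries chondroitin sulfate chains, and their C-terminal domain binds tenascins. PTPRZ1 is a receptor tyrosine phosphatase of radial glia whose secreted form, phosphacan, is itself a chondroitin sulfate proteoglycan that binds tenascins, contactins and the growth factors pleiotrophin and midkine. In the embryonic cortex versican and neurocan belong to the early, loose matrix, whereas brevican, aggrecan and tenascin-R are best known from the mature matrix around axons and synapses.

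Total counts lay between 27514357 and 34878838 per sample. Levels are given as CPM, read counts relative to the library size after TMM scaling. Sufu, which encodes an inhibitor of hedgehog signalling, had 35.9 to 44.8 CPM in Sufu-cKO samples and 104.7 to 124.6 CPM in control samples. All 8 marker genes of the dorsal telencephalon were detected, and their summed level was 1778 to 2067 CPM in Sufu-cKO and 2034 to 2308 CPM in control samples. Of the 8, 2 were called higher (Tbr1, Pax6) and 4 lower (Emx1, Emx2, Neurog2, Lhx2), where edgeR called 11.0% of all tested genes. In Mut_337 the 8 markers of meninges and mesenchyme summed to 1554 CPM, while Mut_295, Mut_317 and Mut_340 had 721 to 753 CPM and the controls 883 to 953 CPM. That sample stands apart, and for Hapln1, Tnc and some other genes below the log2 fold change is given with and without it. Endothelial markers summed to 255.2 to 306.0 CPM in Sufu-cKO and 303.9 to 350.1 CPM in control samples, with 2 of 8 called lower. Young neuron markers summed to 2344 to 2542 CPM in Sufu-cKO and 1881 to 2183 CPM in control samples, with 5 of 8 called higher.

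Of the 7 genes with enough counts to be tested, Bcan was lower and Vcan and Ptprz1 were higher in Sufu-cKO in the edgeR fit over all genes. That fit called 11.0% of 15382 genes at an adjusted p under 0.05, 5.34% as higher and 5.64% as lower. Since the genes were chosen with this contrast in view, nothing is read from that count. The promoters of these 3 genes are shown because their transcripts differ most clearly between the genotypes and in opposite directions. Each is the RefSeq window (GRCm38.p6) on the strand of its gene, 250 bases before to 50 bases after the annotated start, with every CG dinucleotide in capitals. The windows lie at chr3:88000307-88000606 (minus strand, Bcan), chr13:89742463-89742762 (minus strand, Vcan) and chr6:22875252-22875551 (plus strand, Ptprz1).
Bcan: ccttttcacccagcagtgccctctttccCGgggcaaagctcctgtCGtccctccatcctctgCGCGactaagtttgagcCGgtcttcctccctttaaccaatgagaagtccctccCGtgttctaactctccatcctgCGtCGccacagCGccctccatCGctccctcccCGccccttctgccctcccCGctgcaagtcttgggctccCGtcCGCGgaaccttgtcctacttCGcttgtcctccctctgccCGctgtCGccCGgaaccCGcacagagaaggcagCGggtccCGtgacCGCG
Vcan: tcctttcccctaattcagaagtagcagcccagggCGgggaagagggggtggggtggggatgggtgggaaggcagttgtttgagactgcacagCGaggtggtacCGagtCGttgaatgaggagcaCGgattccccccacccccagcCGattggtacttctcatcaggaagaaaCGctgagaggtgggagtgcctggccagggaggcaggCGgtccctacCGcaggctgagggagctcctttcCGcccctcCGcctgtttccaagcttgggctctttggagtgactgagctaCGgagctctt
Ptprz1: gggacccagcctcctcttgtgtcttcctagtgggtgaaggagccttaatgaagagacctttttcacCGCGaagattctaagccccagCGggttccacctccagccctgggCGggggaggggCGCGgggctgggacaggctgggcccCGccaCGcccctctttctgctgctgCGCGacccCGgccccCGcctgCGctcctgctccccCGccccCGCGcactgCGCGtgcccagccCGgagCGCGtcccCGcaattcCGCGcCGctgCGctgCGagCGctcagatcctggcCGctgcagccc

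The Bcan window held 24 CG dinucleotides, that of Ptprz1 29 and that of Vcan 12, against a median of 7 over the 32851 promoters of the same table. Hapln1 and Tnr, whose transcripts were not called, had 3 CG dinucleotides each, Ncan had 9 and Acan had 31. Tnc, also not called, had 2 windows with 10 and 16. The CG count did not follow the direction of the transcript difference, since Bcan and Ptprz1 had similar counts. The RefSeq starts of Bcan and Acan lie outside the deposited spans of these genes, and that of Vcan just outside its own. Their windows may therefore not fit the starts used in this tissue. The letters GACCACCCA, a consensus binding site of the GLI transcription factors, were searched on either strand without mismatch. They occurred in none of the windows of the 8 genes and in 0.253% of all promoters in the table, which says only that this exact string is not in these windows.

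Brevican fell further than nearly every other transcript. Bcan (ENSMUSG00000004892, chromosome 3, 87987531 to 88000230, GRCm38) had 45, 20, 8 and 41 counts in Mut_295, Mut_317, Mut_337 and Mut_340, and 500, 495, 457 and 261 counts in Cont_294, Cont_345, Cont_365 and Cont_370. As levels these were 1.49, 0.704, 0.234 and 1.32 CPM in the Sufu-cKO samples, and 17.15, 18.05, 14.44 and 7.37 CPM in the control samples. The genotypes did not overlap, and Mut_337 and Cont_370 were the lowest of their genotypes. The mean was 0.938 ± 0.578 CPM in Sufu-cKO and 14.25 ± 4.84 CPM in control (SD, n = 4 each). The difference was 15.2-fold lower in Sufu-cKO (log2 fold change -3.93, SE 0.498), and among tested genes averaging 1 CPM or more a single other gene was lowered more. Over the fits that left out each sample in turn the log2 fold change ran from -4.25 to -3.60, and Bcan was called in all of them. In whole tissue, fewer cells that make a transcript and less transcript per cell cannot be told apart, here and for the genes below.

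Cells of the oligodendrocyte and astrocyte lineages are the main brevican source in older brain, and their mature markers were scarce in all 8 samples. Sox10 and Mog of the oligodendrocyte lineage, and Gfap and S100b of astrocytes, stayed under 1 CPM in every sample. The 8 oligodendrocyte lineage markers summed to 79.4 to 131.6 CPM in Sufu-cKO and 80.2 to 84.2 CPM in control samples, with Olig1 and Olig2 called higher. The 6 astrocyte markers summed to 272.2 to 338.4 CPM in Sufu-cKO and 304.4 to 320.5 CPM in control samples, with Slc1a2 called higher and Gja1 lower. Radial glia markers summed to 3471 to 3627 CPM in Sufu-cKO, above the 2616 to 2819 CPM of control samples. Vim and Nes made up most of this sum and were called higher with Slc1a3 and Sox2, whereas Fabp7, Hes5 and Prom1 had log2 fold changes of -0.34, -0.19 and -0.15 and were not called. The 8 markers of ventral telencephalon and GABAergic neurons summed to 27.3 to 183.2 CPM in Sufu-cKO and 6.09 to 99.0 CPM in control samples. In Sufu-cKO the sums were 183.2, 27.3, 89.7 and 171.1 CPM in Mut_295, Mut_317, Mut_337 and Mut_340, so that the 2 samples with most Bcan had the highest. In control samples they were 20.1, 6.09, 32.8 and 99.0 CPM in Cont_294, Cont_345, Cont_365 and Cont_370, so that the sample with least Bcan had the highest, and the sums followed Bcan in no common direction. The part of these cells in the level of Bcan was not tested.

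**Figure D1:**
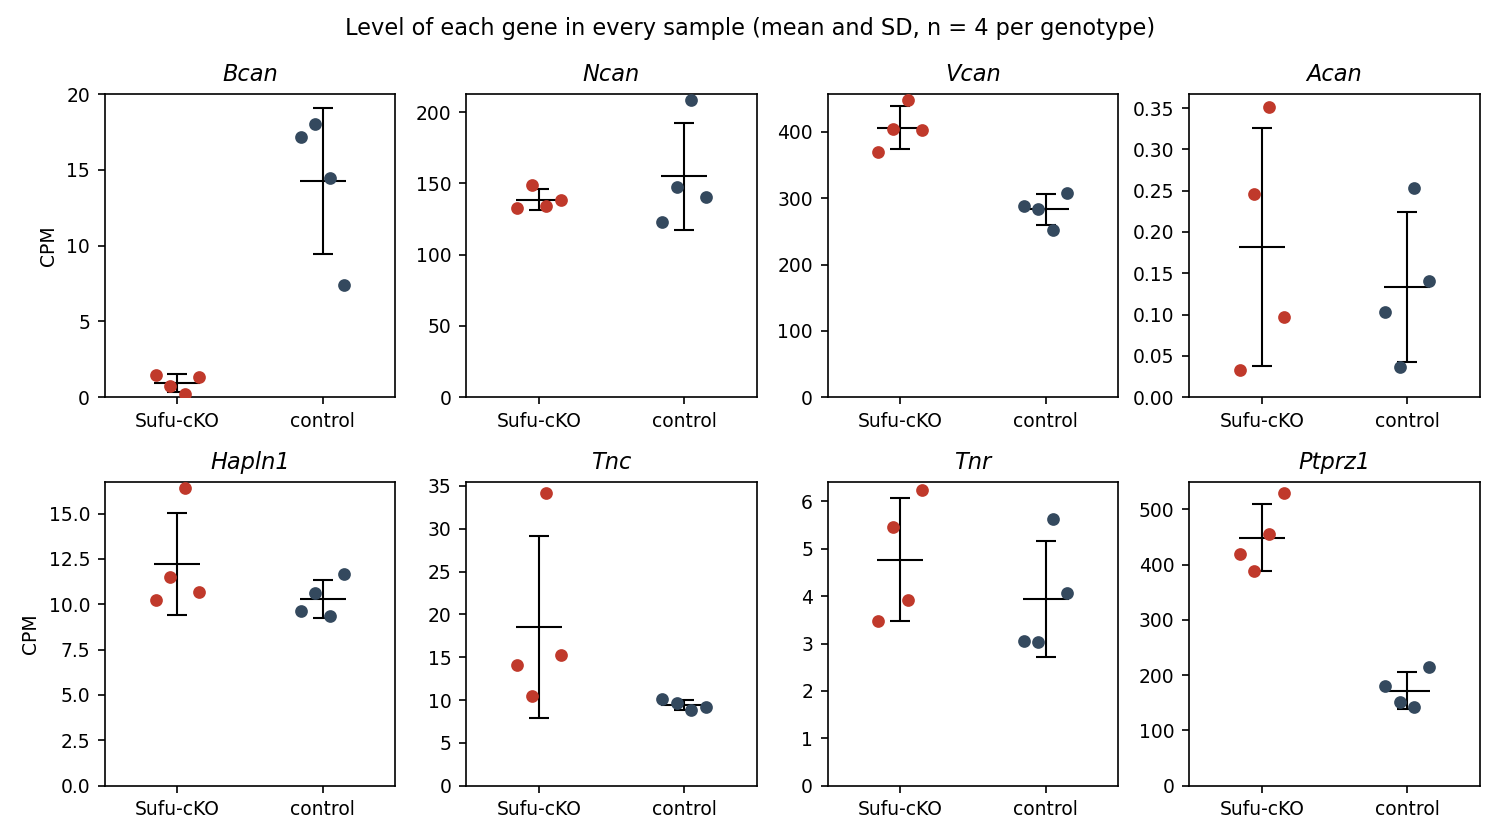
CPM of the 8 genes (y axis, linear, starting at 0) in the 4 Sufu-cKO and the 4 control samples; points are samples, the bar is the mean and the whisker the SD. Bcan separates the genotypes downwards (at most 1.49 CPM in Sufu-cKO, at least 7.37 CPM in control), Vcan and Ptprz1 separate them upwards, and Tnc has 1 Sufu-cKO sample, Mut_337, far above the rest.

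Versican rose. Vcan (ENSMUSG00000021614, chromosome 13, 89655312 to 89742509) had 370.2, 404.9, 448.1 and 402.2 CPM in Mut_295, Mut_317, Mut_337 and Mut_340. In Cont_294, Cont_345, Cont_365 and Cont_370 it had 288.4, 283.7, 251.8 and 308.5 CPM. All Sufu-cKO samples lay above all control samples, with the narrowest spread of the 3 called genes. The rise was 1.43-fold (log2 fold change 0.52, SE 0.073), and without Mut_337 or any other sample it stayed between 0.46 and 0.56 on the log2 scale. Versican is made in splice forms that differ in how much of the chondroitin sulfate region they hold, and counts per gene do not separate them. The annotation lists 9 transcripts for the gene.

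Neurocan, the other abundant lectican, was not called. Ncan (ENSMUSG00000002341, chromosome 8, 70093085 to 70120873) had 132.7, 149.0, 134.5 and 138.4 CPM in the Sufu-cKO samples and 122.9, 147.6, 208.6 and 140.5 CPM in the control samples. The genotypes overlapped, and the sample Cont_365 was the highest of all 8. The log2 fold change was -0.16 (SE 0.143), and without Cont_365 it was 0.0088. The sign of its difference therefore rests on that sample.

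Aggrecan, which builds cartilage and the nets around mature neurons, was close to the detection limit. Acan (ENSMUSG00000030607, chromosome 7, 79053483 to 79115099) had 1, 7, 12 and 3 counts in the Sufu-cKO samples and 3, 1, 8 and 5 counts in the control samples. The genotypes overlapped, it did not pass the filter on low counts, and no fold change is given.

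Because the genes differ in length, levels between genes are compared as CPM per kb of merged exon. In control samples the order was Ncan (21.5 ± 5.18), Vcan (19.6 ± 1.63), Ptprz1 (12.1 ± 2.32), Bcan (3.51 ± 1.19), Hapln1 (1.75 ± 0.179), Tnc (1.21 ± 0.072), Tnr (0.306 ± 0.095) and Acan (0.018 ± 0.012, SD, n = 4). Control ranges of neighbours overlapped for Ncan with Vcan and for Bcan with Hapln1, and were apart for the other neighbours. In Sufu-cKO samples Ptprz1 came first at 31.5 ± 4.26 CPM per kb, followed by Vcan at 28.1 ± 2.21 and Ncan at 19.3 ± 1.01. The ranges of Ptprz1 (27.3 to 37.2) and Vcan (25.6 to 31.0) overlapped, as did those of Tnc and Hapln1. Bcan stood at 0.231 ± 0.142 CPM per kb there, below Tnr at 0.371 ± 0.100, although those 2 ranges overlapped. The order rests on the length used: with the longest annotated transcript in place of merged exons, control Vcan came to 22.8, Ncan to 21.5 and Ptprz1 to 21.4 CPM per kb, so the first 3 places are not settled by these data.

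**Figure D2:**
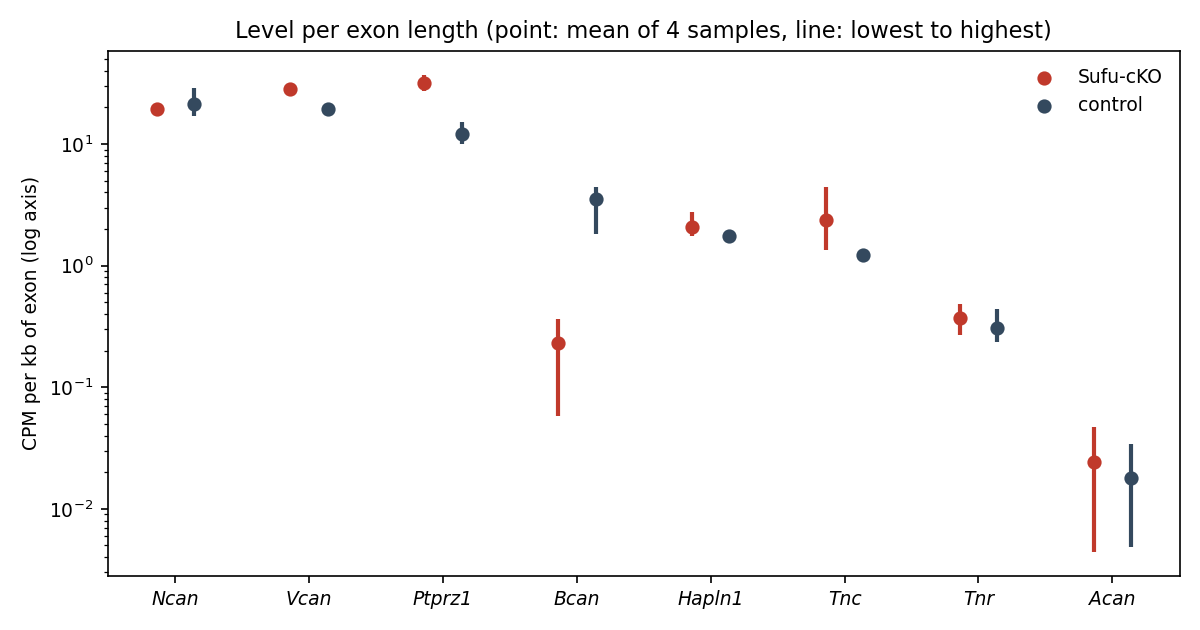
Level of each gene as CPM per kb of merged exon (y axis, log scale) in Sufu-cKO and control samples; points are means and lines run from the lowest to the highest of 4 samples. Bcan is the gene whose place changes most, at 0.231 CPM per kb in Sufu-cKO and 3.51 in control, while Ncan, Hapln1, Tnr and Acan overlap between genotypes.

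The make-up of the lectican transcripts changed while their sum did not separate the genotypes. Summed over the 4 lecticans the level per length was 44.4 to 49.8 CPM per kb in Sufu-cKO and 41.3 to 49.99 CPM per kb in control samples. Bcan made up 0.825%, 0.354%, 0.116% and 0.688% of this sum in Mut_295, Mut_317, Mut_337 and Mut_340, and 10.2%, 9.96%, 7.11% and 4.25% in Cont_294, Cont_345, Cont_365 and Cont_370. Vcan made up 57.2% to 62.2% in Sufu-cKO and 34.8% to 49.97% in control samples. The ranges of these shares did not overlap between genotypes, whereas those of Ncan (37.6% to 42.3% in Sufu-cKO, 41.4% to 58.0% in control) did. Acan took at most 0.0946% in any sample. These shares carry no information beyond the levels above and share their genotype contrast.

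**Figure D3:**
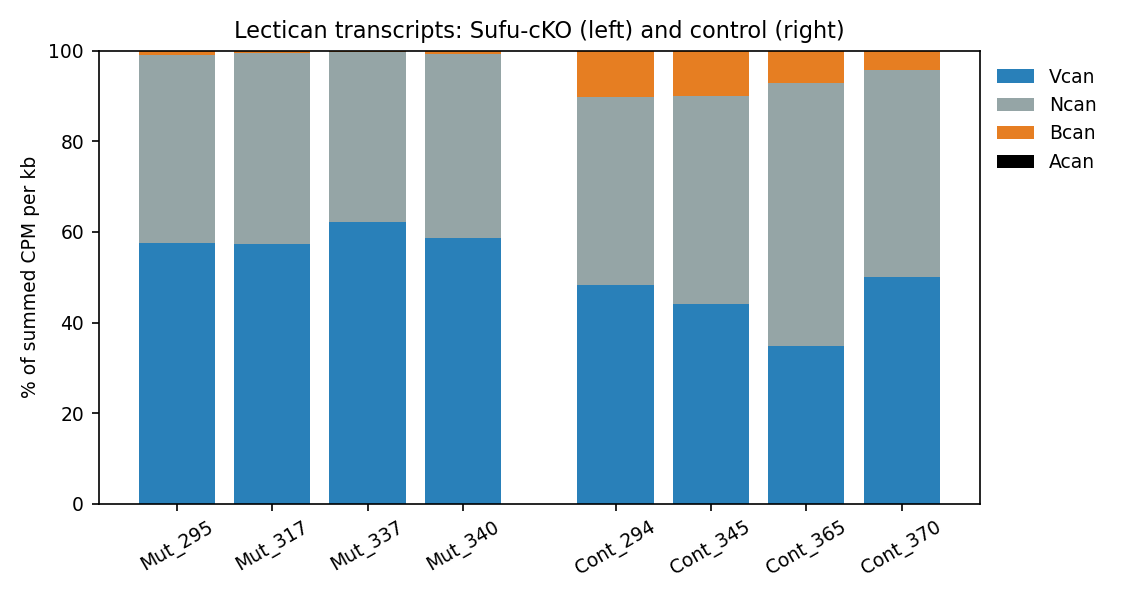
Share of each lectican (y axis, % of the summed CPM per kb of the 4 genes) in each of the 8 samples, Sufu-cKO on the left and control on the right. The Bcan segment is at most 0.825% in Sufu-cKO and 4.25% to 10.2% in control samples.

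Each lectican gene lies beside the gene of a link protein, the protein that ties lecticans to hyaluronan, with no other deposited gene between them. The gaps were 21.5 kb from Bcan to Hapln2 on chromosome 3, 2.22 kb from Ncan to Hapln4 on chromosome 8, 1.93 kb from Acan to Hapln3 on chromosome 7 and 43.5 kb from Vcan to Hapln1 on chromosome 13. Hapln2, the neighbour of Bcan, had 0 to 3 counts per sample and Hapln4 had 0 to 6, so neither could be tested. Hapln3 had 1.78 ± 0.457 CPM in Sufu-cKO and 2.09 ± 0.398 CPM in control samples and was not called (log2 fold change -0.24, SE 0.230; edgeR, adjusted p = 0.616).

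Hapln1 (ENSMUSG00000021613, chromosome 13, 89540636 to 89611832), the most counted of the 4 link proteins here, was not called either. It had 10.3, 11.5, 16.4 and 10.7 CPM in Mut_295, Mut_317, Mut_337 and Mut_340, and 9.605, 10.6, 9.35 and 11.7 CPM in Cont_294, Cont_345, Cont_365 and Cont_370. The genotypes overlapped, with Mut_337 alone above the control range. The log2 fold change was 0.25 (SE 0.151), and without Mut_337 it was 0.060.

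Among the partners outside the lectican family, Ptprz1 rose most clearly. Ptprz1 (ENSMUSG00000068748, chromosome 6, 22875502 to 23052916) had 420.2, 389.4, 456.3 and 530.2 CPM in Mut_295, Mut_317, Mut_337 and Mut_340. It had 180.7, 150.9, 142.2 and 215.3 CPM in Cont_294, Cont_345, Cont_365 and Cont_370. The lowest Sufu-cKO sample was well above the highest control sample. The rise was 2.61-fold (log2 fold change 1.38, SE 0.142), and 105 tested genes averaging 1 CPM or more were raised more. Counts per gene cover the receptor and the secreted phosphacan form together. The 7 radial glia markers, whose cells make PTPRZ1, were also higher in sum in every Sufu-cKO sample (values above). Vim and Nes made up most of that sum. Of the 7, 4 were called higher, where edgeR called 5.34% of all tested genes higher. Fabp7, Hes5 and Prom1 had log2 fold changes of -0.34, -0.19 and -0.15 and were not called. The part of radial glia in the rise of Ptprz1 was not tested.

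Tenascin-C, a matrix glycoprotein of the germinal zone and of mesenchyme, varied more among Sufu-cKO samples than any member but Bcan and Acan. Tnc (ENSMUSG00000028364, chromosome 4, 63959785 to 64047015) had 14.04, 10.5, 34.1 and 15.3 CPM in Mut_295, Mut_317, Mut_337 and Mut_340, and 10.1, 9.625, 8.78 and 9.205 CPM in Cont_294, Cont_345, Cont_365 and Cont_370. All Sufu-cKO samples lay above all control samples, Mut_317 by a small margin. The coefficient of variation was 57.4% in Sufu-cKO and 5.93% in control. Over all 8 samples the log2 fold change was 0.98 (SE 0.345) and the gene was not called. Without Mut_337 it was 0.49 (SE 0.135) and the gene was called as higher, and without Mut_317 it was 1.17 (SE 0.295) and also called. Groups did not overlap for 16.2% of all tested genes, and Bcan, Vcan, Ptprz1 and Tnc were in that class.

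Mut_337 combined the highest Tnc and Hapln1 levels with the highest sum of mesenchyme markers. Col1a1 had 221.0 CPM and Twist1 12.51 CPM in Mut_337. In Mut_295, Mut_317 and Mut_340 Col1a1 had 48.5 to 57.6 CPM and Twist1 1.59 to 1.81 CPM. These were among the markers that stood out most. Dcn did not stand out, with 50.8 CPM in Mut_337, 52.8 CPM in Mut_340 and 45.6 to 63.0 CPM in the controls. Pdgfrb had 44.84 CPM in Mut_337 and 39.41 to 44.76 CPM in the controls. All 8 mesenchyme markers were detected in every sample and none was called. In the other 3 Sufu-cKO samples the marker sum was below every control sample while Tnc was above. The part of mesenchyme in the Mut_337 values was not tested.

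**Figure D4:**
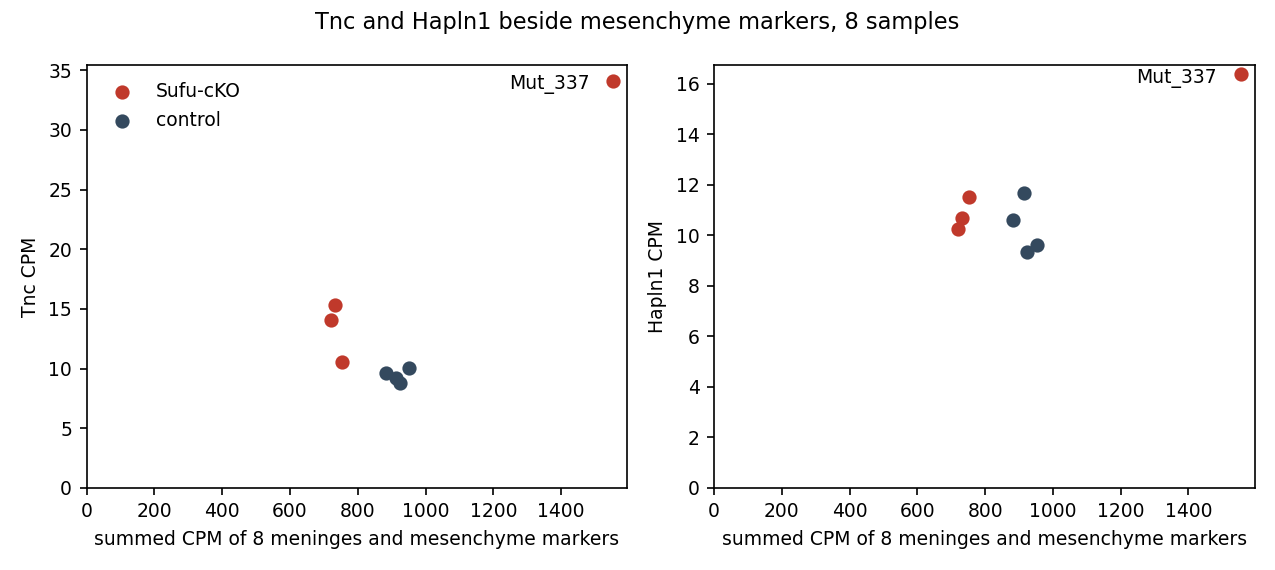
Tnc (left) and Hapln1 (right) in CPM (y axes) against the summed CPM of 8 meninges and mesenchyme markers (x axis) for the 4 Sufu-cKO and 4 control samples. Mut_337 lies alone at 1554 CPM of markers; the other Sufu-cKO samples have fewer marker transcripts and more Tnc than the control samples.

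Tenascin-R, which in older brain links lecticans in the nets around neurons, was low in both genotypes. Tnr (ENSMUSG00000015829, chromosome 1, 159523769 to 159931729) had 3.48, 5.46, 3.93 and 6.23 CPM in the Sufu-cKO samples and 3.05, 3.03, 5.62 and 4.07 CPM in the control samples. The genotypes overlapped, and the log2 fold change was 0.27 (SE 0.242), not called. In the authors' deposited table the fold changes of Sufu-cKO over control were 0.0657 for Bcan, 1.43 for Vcan, 2.60 for Ptprz1, 1.96 for Tnc and 1.21 for Tnr.

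Samples also differed within a genotype in a shared way. After removal of the genotype means, log2 levels of Bcan and Hapln1 had a Pearson r of -0.92 over the 8 samples, Vcan and Hapln1 of 0.82, and Hapln1 and Tnc of 0.78. Bcan and Ncan had 0.011, and Ncan and Tnr 0.72. These values describe 8 libraries, whose depth and scaling all genes share, and among Sufu-cKO samples Mut_337 had the highest Hapln1, Vcan and Tnc and the lowest Bcan.

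The genes most like Bcan across the 8 samples were taken by Pearson r of log2 CPM among 12517 tested genes that averaged 1 CPM or more and were neither pseudogenes nor unnamed gene models. They were Rlbp1 (r = 0.998), which encodes a retinaldehyde-binding protein of glia, Ndrg2 (0.992), B3gat2 (0.991), a glucuronyltransferase of the HNK-1 carbohydrate, Ppp2r2b (0.991), a regulatory subunit of protein phosphatase 2A, and Inhbb (0.989), a subunit of inhibins and activins. Rlbp1 had 31.6, 25.6, 18.3 and 31.6 CPM in Mut_295, Mut_317, Mut_337 and Mut_340, and 66.9, 66.1, 62.7 and 48.4 CPM in Cont_294, Cont_345, Cont_365 and Cont_370. Like Bcan, all 5 genes had their lowest Sufu-cKO value in Mut_337 and their lowest control value in Cont_370. Within genotypes the r of Rlbp1 with Bcan was 0.997, against 0.920 to 0.938 for the other 4 genes. The same 8 samples chose these genes, which partly fixes both traits. The likeness is in pattern and not in size, since the log2 fold change of Rlbp1 was -1.19, that of Ndrg2 -2.04 and that of Bcan -3.93. All 5 were called lower by edgeR, a direction that their choice by likeness to Bcan largely fixes.

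The surrounding matrix pathway was described by 6 lists with 111 genes, of which 102 could be tested. Of these, 8 were called higher, 11 lower and 83 not, so that 18.6% were called against 11.0% of all tested genes. The lists were chosen with earlier results of these data known, so nothing is read from the difference in these shares. All p-values below are from edgeR's quasi-likelihood test and adjusted over all 15382 genes. They describe single genes and carry the same limit.

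Genes of lectican-cleaving and matrix proteases and their inhibitors included the largest rise on the lists. Of 17 tested, 1 rose, 4 fell and 12 were not called (median log2 fold change -0.16, against 0.0071 over all tested genes). Adamts20, a secreted metalloprotease that cleaves versican, had 127.6, 173.3, 149.7 and 132.4 CPM in Mut_295, Mut_317, Mut_337 and Mut_340, and 28.16, 22.75, 28.34 and 35.15 CPM in Cont_294, Cont_345, Cont_365 and Cont_370. The genotypes were far apart, and the rise was 5.09-fold (log2 fold change 2.35, SE 0.139; edgeR, adjusted p = 5.68e-06). Adamts9 and Adamts5, which also cleave lecticans, fell by 0.98 (edgeR, adjusted p = 0.00471) and 0.81 (edgeR, adjusted p = 0.017) on the log2 scale. Without Cont_365 the call of Adamts5 was lost (edgeR, adjusted p = 0.0564). Timp3, an inhibitor of metalloproteases and of ADAMTS enzymes, fell to 47.6 ± 2.47 CPM in Sufu-cKO, against 63.2 ± 1.63 CPM in control (n = 4 each; edgeR, adjusted p = 0.00076). The fourth gene that fell was Timp2 (log2 fold change -0.25; edgeR, adjusted p = 0.0317), named to complete the count. Its genotypes overlapped, and its call was lost in 6 of the 8 fits with a sample left out.

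Genes of chondroitin sulfate synthesis had 1 rise and 3 falls among 21 tested, with 17 not called (median -0.040). Chst11, which adds sulfate at the 4 position of the galactosamine unit, rose to 44.6 ± 3.23 CPM in Sufu-cKO, against 24.7 ± 1.18 CPM in control (n = 4 each; log2 fold change 0.85, SE 0.073; edgeR, adjusted p = 1.49e-05). Chst3, which sulfates the 6 position of that sugar, fell to 28.8 ± 1.86 CPM in Sufu-cKO, against 37.5 ± 3.33 CPM in control (n = 4 each; edgeR, adjusted p = 0.00994). Ust, which sulfates the uronic acid unit, fell by 0.76 on the log2 scale (edgeR, adjusted p = 0.0111). Chsy3, a chain polymerase, fell by 0.84 (edgeR, adjusted p = 0.0405), but lost its call in 5 of the 8 fits with a sample left out. The 17 others lay between -0.18 and 0.17.

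Genes of hyaluronan turnover and binding moved in both directions, with 3 rises, 2 falls and 8 not called of 13 tested (median -0.069). Has2, a hyaluronan synthase of embryonic tissue, fell to 2.92 ± 0.355 CPM in Sufu-cKO, against 4.54 ± 0.571 CPM in control (n = 4 each; edgeR, adjusted p = 0.0221). Its call was lost in 4 of the 8 fits with a sample left out. Has3, another synthase named after its values were seen, had 5.34 ± 0.234 CPM in Sufu-cKO and 5.54 ± 1.27 CPM in control samples. It was not called (log2 fold change -0.054). Cemip, which promotes hyaluronan breakdown, fell by 1.07 on the log2 scale (edgeR, adjusted p = 0.00275). Tnfaip6, a secreted hyaluronan-binding protein, rose to 8.13 ± 2.36 CPM in Sufu-cKO, against 3.355 ± 0.515 CPM in control (edgeR, adjusted p = 0.00184), and Cemip2, a membrane protein related to Cemip, rose by 0.37 (edgeR, adjusted p = 0.00302). Hmmr, a hyaluronan receptor that also binds the mitotic spindle, was named to complete the count of rises. It stood at 0.25 (edgeR, adjusted p = 0.0286) and lost its call in 6 of those 8 fits.

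Binding partners of tenascins, lecticans and PTPRZ1 had 1 rise, 2 falls and 19 not called of 22 tested (median 0.016). Nrcam, a neural adhesion molecule that binds PTPRZ1, rose to 132.2 ± 9.88 CPM in Sufu-cKO, against 82.4 ± 7.68 CPM in control (n = 4 each; log2 fold change 0.68, SE 0.076; edgeR, adjusted p = 0.000127). Mdk, the PTPRZ1 ligand midkine, had 183.4, 139.5, 160.5 and 113.2 CPM in the Sufu-cKO samples and 200.7, 236.5, 234.8 and 207.6 CPM in the control samples. It fell by 0.56 on the log2 scale (edgeR, adjusted p = 0.0252), with no overlap of the genotypes. Ptn, the related ligand pleiotrophin, named after its values were seen, had 184.0 ± 17.3 CPM in Sufu-cKO and 174.0 ± 10.3 CPM in control samples and was not called (log2 fold change 0.080; edgeR, adjusted p = 0.579). Cntn1, a contactin that binds PTPRZ1 and tenascin-R, fell by 0.49 (edgeR, adjusted p = 0.0191). The calls of Mdk and of Cntn1 were absent from 3 of those 8 fits each. The tenascin gene Tnn, named after its values were seen, was not tested, with 38 counts in Mut_337, 0 to 1 in Mut_295, Mut_317 and Mut_340, and 0 to 7 in the controls.

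Of 22 other proteoglycan core proteins, Cspg5 and Gpc3 rose and 20 were not called (median -0.041). Cspg5, a neural chondroitin sulfate proteoglycan, had 14.3 ± 1.25 CPM in Sufu-cKO and 9.25 ± 1.56 CPM in control (n = 4 each; edgeR, adjusted p = 0.0091). Gpc3, a glypican of the cell surface, had 99.5 ± 24.6 CPM in Sufu-cKO and 51.8 ± 2.05 CPM in control (n = 4 each; edgeR, adjusted p = 0.0026), with Mut_337 highest. Without Mut_337 the number of called genes on this list was 5. Of the 7 chondroitin sulfate receptors and relatives of PTPRZ1, edgeR called 0 and limma-voom 0, DESeq2 called 1, and 2 had an unadjusted edgeR p under 0.05. The most abundant of them, Ptprs, a receptor for chondroitin sulfate, had 492.2 ± 69.7 CPM in Sufu-cKO and 594.5 ± 77.3 CPM in control samples, and differed by -0.27 on the log2 scale (SE 0.115; edgeR, adjusted p = 0.188). Its relative Ptprf stood at -0.064 (SE 0.110; edgeR, adjusted p = 0.804).

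**Figure D5:**
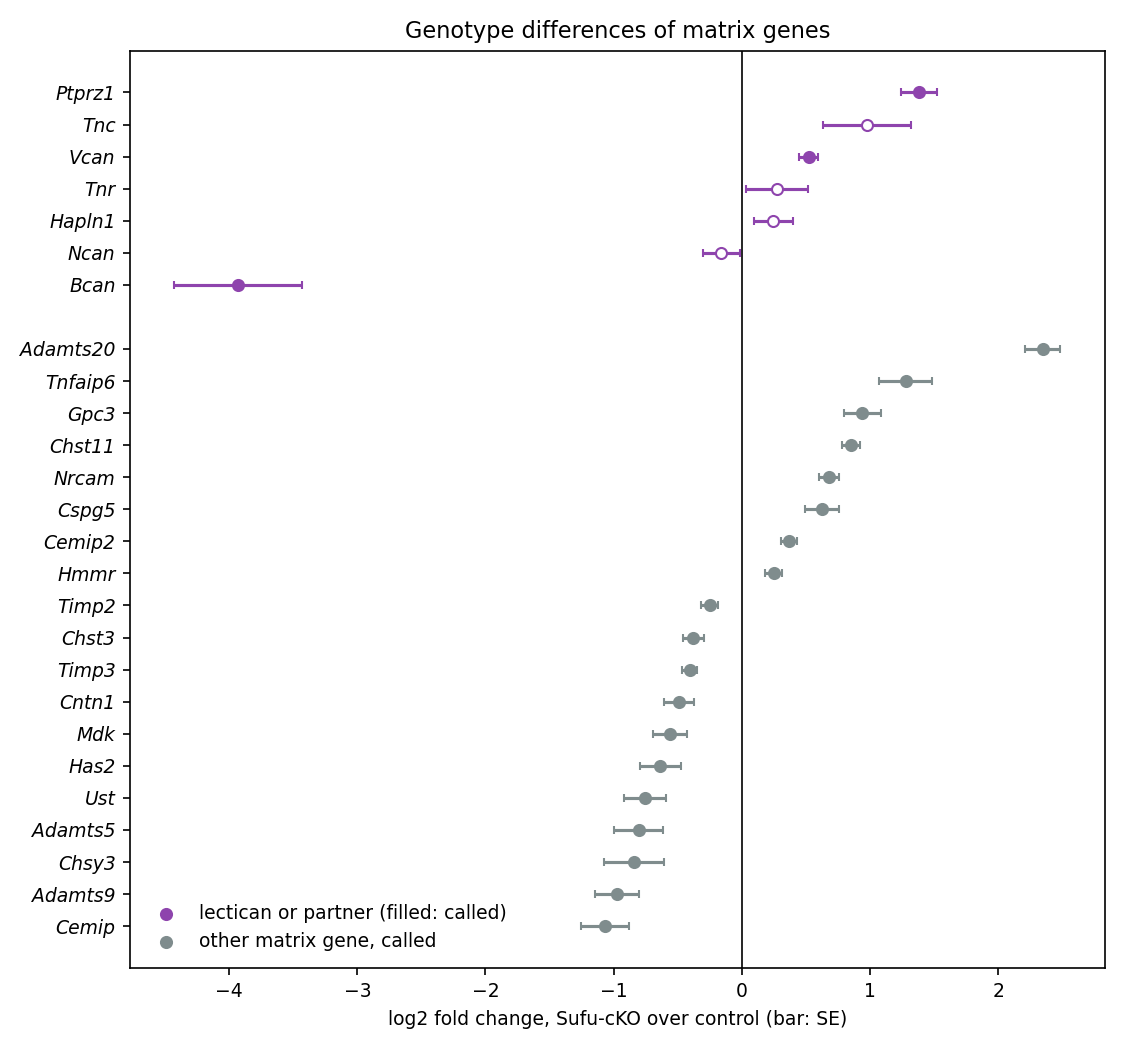
Log2 fold change of Sufu-cKO over control (x axis; bars are SE) for the 7 tested lecticans and partners (top; filled points were called, open points were not) and for the 19 called genes of the 6 matrix lists (below). Bcan at -3.93 lies further from 0 than any other gene shown, and Adamts20 at 2.35 is the furthest to the right.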

How the data were processed

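RNA of 8 samples was sequenced from stranded mRNA libraries, per the labels' protocols. Reads were aligned with STAR 2.4.2a to GRCm38, per the submitters' processing notes. The program that counted them was not given in the sources used here, nor was its use of strand or the test software. Raw gene counts were deposited and are what was tested here. The authors also deposited a normalised signal, each count divided by 1 size factor per sample, which equalled the median-of-ratios factor computed here, and a fold change (a ratio), p-values and false discovery rates; the deposited p-values were not used.

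Counts were fitted in R 4.3.3 with edgeR 4.0.16: filterByExpr at defaults (minimum count 10, minimum total 15; 15382 genes with 99.9% of counts kept), TMM scaling, the robust quasi-likelihood F-test, 2-sided, with Benjamini-Hochberg adjustment over all tested genes and calls at 0.05. The SE was back-calculated from the fold change and F statistic. The fit was tested on simulated data. Pairs of samples within a genotype differed by far more than sampling noise (chi-square per gene 8.74 to 30.5), so each counted once. Columns that matched no sample numbered 0. Log2 CPM used a prior count of 2; exon lengths came from GENCODE M21 on the same build, and no annotated gene sharing exon bases with a member had more than 7 counts in a sample. Promoters came from RefSeq.

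Members and lists were chosen with earlier results of these data known. From each list, up to 4 called genes with the smallest p were named, made up to 2 with the most abundant genes, with Hapln2, Hapln3 and Hapln4 always, and the 5 genes most like Bcan. Alternatives were 3 other scalings, no filter, a filter of 1 CPM in 4 samples, limma-voom (limma 3.58.1), DESeq2 1.42.0, no robust estimation, and each sample left out.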

Additional observations from a re-analysis of the deposited data

Results flagged for a closer look

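In all, 76 groups of 4 samples were examined, 1 per genotype for the named genes other than Has3, Tnn and the cell type markers. In 3 groups the gap of a sample to its nearest neighbour, as a share of the group's range, passed Dixon's 95% critical value. Chance alone flags about 1 in 20 groups, so 3 of 76 is no excess over chance. In all 3 groups the flagged sample was Mut_337. Among genes not examined here, Mut_337 also had the most Tnn (38 counts), Col1a1 (221.0 CPM) and Twist1 (12.51 CPM). These are named because they were high in that sample, so they add nothing to the flags. Adamts9 had 18.8 CPM in Mut_337 against 11.4 to 12.3 CPM in the other Sufu-cKO samples, Gpc3 had 135.9 CPM against 83.2 to 91.8 CPM, and Timp2 had 105.0 CPM against 88.9 to 90.2 CPM. Without Mut_337 the log2 fold change was -1.19 for Adamts9 and -0.32 for Timp2. For Gpc3 it was 0.94 with all samples, and 0.743 to 1.02 over the fits that left out each sample in turn. In Mut_337 the 8 mesenchyme markers summed to 1554 CPM, and their part in the values of that sample was not tested.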

How the results depend on the processing

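No paired analysis was possible because the labels name no litter or pairing. Of 27 named genes that were called, 20 kept their call in all 16 alternatives, Bcan, Vcan, Ptprz1 and the 5 genes most like Bcan among them, and none of the 27 changed direction. The other 7 lost it in some: Hmmr when any sample other than Cont_345 or Mut_295 was left out (edgeR, adjusted p 0.0553 to 0.0993), Timp2 when any other than Cont_370 or Mut_337 was (0.0625 to 0.0948), Chsy3 without Cont_294, Cont_365, Mut_295, Mut_317 or Mut_340 (0.0543 to 0.123), Has2 without Cont_294, Cont_370, Mut_317 or Mut_340 (0.0513 to 0.0734), Cntn1 without Cont_294, Cont_365 or Mut_317 (0.0513 to 0.0587), Mdk without Cont_345, Cont_365 or Mut_317 (0.0709 to 0.0743) and without a count filter (0.0944), and Adamts5 without Cont_365 (0.0564).

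With a sample left out, the log2 fold change ran from -0.256 to 0.00878 for Ncan, from 0.487 to 1.17 for Tnc and from -0.139 to 0.0314 for Ptprf, which changed sign without Mut_340. Over those fits 1079 to 1836 genes were called (537 to 939 higher, 542 to 897 lower), fewest without Cont_345. List genes called lower numbered 6 to 16, with 6 without Mut_317 and 7 without Cont_365, and 17 by DESeq2. By DESeq2 8 hyaluronan genes and 5 binding partners were called. Binding partners called numbered 1 without Cont_365 or Mut_317, and receptors called numbered 1 without Cont_294 and 2 without Mut_295. The cause was not tested. With the longest transcript as length, control levels were 22.8 CPM per kb for Vcan, 1.33 for Tnc and 21.4 for Ptprz1.

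Depth limits Acan, Hapln2 and Hapln4, where a difference was not detectable at these counts, and the size of the fall of Bcan, which rests on 8 to 45 counts per Sufu-cKO sample.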
